A study of Mus musculus with 9 samples.

Results

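The mouse mitochondrial genome carries 37 genes, and all 37 were listed among the 47728 gene rows of each count file. They were taken as every gene whose symbol starts with mt-, and comprised 13 protein-coding genes, 2 ribosomal RNA (rRNA) genes and 22 transfer RNA (tRNA) genes. They were measured in C2C12, an established line of mouse myoblasts, the precursor cells that fuse into muscle fibres. The 3 genotypes were a control, an Fkbp4 knockdown and an Fkbp5 knockdown, which lower genes for 2 members of the FK506-binding protein family of prolyl isomerases and Hsp90 co-chaperones. Each was sampled at day 0, when a medium with insulin, transferrin and selenium replaced growth medium, and at days 3 and 5 of differentiation. PolyA RNA was sequenced from 1 library per genotype and day, 9 in all. The sources used here do not give the method of knockdown, what the control cells received, or whether each knockdown was 1 clone or a pool. With no replicate libraries, the 3 days of a genotype, or the 3 genotypes of a day, stood in for replicates, so p-values measure only the spread left after genotype and day were fitted.

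Both strands of the circular mitochondrial genome are transcribed by a dedicated RNA polymerase, Polrmt, with the packaging factor Tfam, into long precursors that run through many genes. The tRNAs lie between the other genes, and their excision releases the messenger RNAs and rRNAs, most of which then receive short poly(A) tails. The coding genes give core subunits of respiratory complexes I, III and IV and of the ATP synthase, while all other subunits and the whole transcription machinery come from the nucleus. In muscle, differentiation is known to be accompanied by a growing mitochondrial content. By annotation, 28 of the 37 genes lie on one strand and 9 on the other, mt-Nd6 and 8 tRNA genes. Whether counting used strand is not given in the sources used here, so reads from RNA of either strand at a gene could not be told apart.

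A stretch of this genome also exists in the nucleus. In GRCm38, chr1:24611535-24616197 (minus strand) holds 7 annotated unprocessed pseudogenes in the same order as their mitochondrial counterparts, and they matched mitochondrial bases 6394 to 11042, a length of 4649 bases. Over the 4149 bases compared, 7 bases differed, and 5 of the 7 pseudogenes had no difference at all. The gaps between neighbours were equally long on both chromosomes in 5 of 6 cases. The sequences at the edge of the stretch are shown because they mark where reads can first be assigned to one genome or the other. They come from GENCODE M21 transcripts (GRCm38) and run 5′ to 3′, with differing bases in capitals. The mt-Co1 line starts at base 1054 of that gene, and its differences from the pseudogene Gm29216 were T1056A, C1057T, A1059G, A1060G, C1062A and A1066T, counted from the first base of mt-Co1 with the mitochondrial base first.

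mt-Co1: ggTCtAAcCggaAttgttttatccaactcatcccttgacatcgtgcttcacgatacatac

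Gm29216: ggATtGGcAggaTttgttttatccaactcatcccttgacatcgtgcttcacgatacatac

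Downstream of A1066T the remaining 479 bases of mt-Co1 were identical to the pseudogene, which is 31% of the gene. Inside the stretch, the only other difference among the annotated pseudogenes was T3C in mt-Nd3, at the third base of its start codon in the first 60 bases below.

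mt-Nd3: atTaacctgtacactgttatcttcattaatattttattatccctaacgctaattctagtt

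Gm28438: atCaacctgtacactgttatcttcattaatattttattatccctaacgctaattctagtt

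The genes mt-Co2 (Gm28661, 0 of 681 bases different), mt-Atp6 (Gm10925, 0 of 678), mt-Co3 (Gm28437, 0 of 783), mt-Nd4l (Gm10222, 0 of 294) and the first 63.6% of mt-Nd4 (Gm28439, 0 of 876) had no distinguishing base. mt-Atp8, a small ATP synthase subunit, has no annotated pseudogene there, but it lies in the 233-base gap between mt-Co2 and mt-Atp6, which is equally long on chromosome 1. It is shown because it is counted as inside the stretch from its position alone, and its last 43 bases, in capitals, are also the first bases of mt-Atp6.

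mt-Atp8: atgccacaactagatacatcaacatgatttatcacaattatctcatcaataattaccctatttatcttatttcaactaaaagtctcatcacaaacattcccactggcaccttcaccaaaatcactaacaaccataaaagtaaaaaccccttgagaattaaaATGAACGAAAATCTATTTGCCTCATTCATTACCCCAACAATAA

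On this basis 24 genes lay outside the copied stretch (mt-Nd1, mt-Nd2, mt-Nd5, mt-Nd6, mt-Cytb, both rRNAs and 17 tRNAs). Another 2 lay partly inside (mt-Co1 and mt-Nd4), and 11 lay wholly inside (mt-Co2, mt-Atp8, mt-Atp6, mt-Co3, mt-Nd3, mt-Nd4l and 5 tRNAs). Shorter or more diverged copies were annotated elsewhere, such as Gm13340 on chromosome 2, which matched all 1545 bases of mt-Co1 at 97.6% identity.

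Total counts ran from 3932372 to 5568486 per library, so a gene at 0 reads could have reached 3 counts, or 0.539 to 0.763 CPM (reads scaled to the same total in each library). These floors and all counting intervals cover counting error only. The knockdowns followed their labels. Fkbp4 was at 24.2 to 62.2 CPM in its knockdown against 138 to 243 in the control (log2 fold change −2.28, SE 0.12), and Fkbp5 was at 3.22 to 4.32 CPM against 7.28 to 20.3 (−1.72, SE 0.24). All 9 muscle identity markers rose between day 0 and day 3, and their summed level went from 1171 to 1226 CPM at day 0 to between 5997 and 14856 CPM later. Markers of fat, bone, cartilage, immune and endothelial cells summed to 1.21 to 5.35 CPM, and 5 of 11 had 0 reads in all libraries.

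In mitochondrial reads 3 libraries stood apart: the Fkbp5 knockdown at day 5, the Fkbp4 knockdown at day 5 and the control at day 3. They were singled out after their counts were seen, and the comparisons below are also given without them. Without them the only library of day 5 is that of the control. Fits by genotype and day then compare each knockdown with the control through the control day 0 library alone. They compare day 5 with other days through the control day 5 library alone, so calls or their loss in those comparisons decide little. Reads on all 37 genes made up 1.8%, 4.75% and 4.01% of the control libraries at days 0, 3 and 5, 1.78%, 3.11% and 5.01% of the Fkbp4 knockdown, and 2.57%, 4.52% and 10.1% of the Fkbp5 knockdown. The last of these is the highest, and 3.32 percentage points of it fell on the 11 genes inside the copied stretch. Those 11 genes held 0.67% of the Fkbp4 knockdown day 5 reads and at most 0.01% of any other library.

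**Figure D1:**
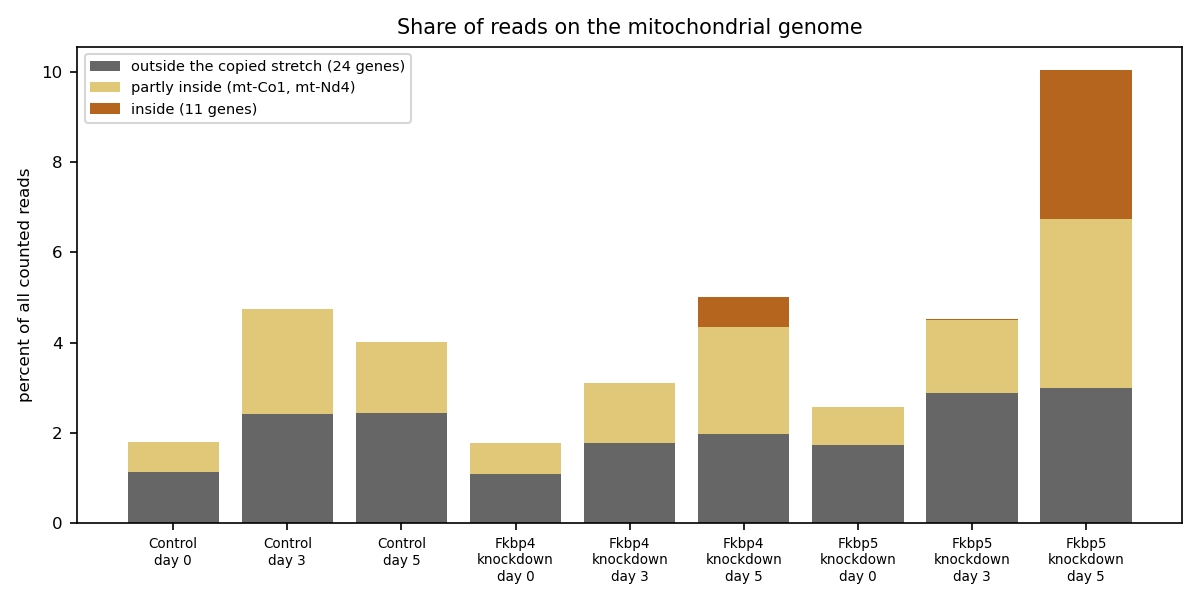
Percent of all counted reads in each of the 9 libraries, stacked by position of the gene; each bar is 1 library. The Fkbp5 knockdown day 5 library holds 3.32% on genes inside the copied stretch and the Fkbp4 knockdown day 5 library 0.67%, while the grey part outside the stretch stays between 1.09% and 2.99%.

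Outside the copied stretch the shares were more even. They were 1.13%, 2.41% and 2.44% of control reads at days 0, 3 and 5, 1.09%, 1.77% and 1.97% for the Fkbp4 knockdown, and 1.72%, 2.88% and 2.99% for the Fkbp5 knockdown. The Fkbp5 knockdown was above the control and the Fkbp4 knockdown below it on 3 of 3 days. As unpaired groups they overlapped. The Fkbp5 knockdown mean was 2.53% ± 0.70 (SD, n = 3) against 1.99% ± 0.75 in the control, and the Fkbp4 knockdown mean was 1.61% ± 0.46. An exact permutation test, two-sided, gave p = 0.5 for each knockdown, and 3 against 3 libraries cannot go below 0.1. It did not pair libraries by day, so its p-values and these SDs include the rise from day 0 to later days. They do not measure how steady the same-day differences were. Over all 37 genes the difference from the control mean was 2.19 percentage points for the Fkbp5 knockdown (p = 0.5) and −0.22 for the Fkbp4 knockdown (p = 0.9) by the same exact test. Leaving out the Fkbp5 knockdown library of day 5 brought the first to 0.02, and leaving out all 3 libraries that stood apart brought them to 0.64 and −0.46. In bulk RNA a change in mitochondrial transcripts per cell and a change in the mix of cells cannot be told apart.

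The coding genes inside the copied stretch were at 0.48 to 34.8 CPM in most libraries and reached far higher counts in 1 or 2. mt-Co2, a catalytic subunit of cytochrome c oxidase (complex IV), was at 14.3, 27.5 and 33.6 CPM in the control at days 0, 3 and 5, at 14.3, 23.9 and 4603 CPM in the Fkbp4 knockdown, and at 21.4, 30.8 and 10921 CPM in the Fkbp5 knockdown. At day 5 the Fkbp4 knockdown was therefore 137-fold, and the Fkbp5 knockdown 325-fold, above the highest of the 6 libraries that did not stand apart. The neighbouring mt-Atp8 was at 3.12, 3.29 and 4.6 CPM in the control, 2.49, 2.87 and 751 CPM in the Fkbp4 knockdown and 5.34, 4.36 and 1758 CPM in the Fkbp5 knockdown. mt-Atp6, the proton channel subunit of the ATP synthase, was at 10.5, 24.4 and 21.3 CPM in the control, 11.2, 20.1 and 1340.5 CPM in the Fkbp4 knockdown and 16.8, 31.4 and 8556 CPM in the Fkbp5 knockdown. The excess over the highest of the other 6 libraries was thus 42.6-fold for mt-Atp6 in the Fkbp4 knockdown, smaller than the 141-fold of mt-Atp8 beside it.

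Farther along the genome the 2 knockdown libraries parted. mt-Co3, a further subunit of complex IV, was at 14.1, 29.1 and 34.8 CPM in the control, 14.7, 19.8 and 26.5 CPM in the Fkbp4 knockdown and 15.8, 32.1 and 10440.1 CPM in the Fkbp5 knockdown. The complex I subunit mt-Nd3 was at 1.12, 1.41 and 0.48 CPM in the control, 2.28, 1.08 and 0.64 CPM in the Fkbp4 knockdown and 2.80, 2.98 and 559 CPM in the Fkbp5 knockdown. mt-Nd4l, also of complex I, was at 1.12, 2.11 and 4.11 CPM in the control, 0.62, 1.44 and 2.12 CPM in the Fkbp4 knockdown and 2.80, 3.21 and 931 CPM in the Fkbp5 knockdown. From mt-Co3 onward the Fkbp4 knockdown day 5 library lay within the range of the 6 libraries that did not stand apart, and only the Fkbp5 knockdown day 5 library was high.

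The 2 genes partly inside the stretch carried the same order in smaller steps. mt-Co1, the largest complex IV subunit, was at 5788, 21389.7 and 13375 CPM in the control, 6026, 11907 and 21913 CPM in the Fkbp4 knockdown and 7245, 14129 and 32134 CPM in the Fkbp5 knockdown. All 3 libraries that stood apart exceeded the highest of the other 6, by 1.51-fold (control day 3), 1.55-fold (Fkbp4 knockdown day 5) and 2.27-fold (Fkbp5 knockdown day 5). mt-Nd4, a proton-pumping subunit of complex I, was at 856, 1999 and 2249 CPM in the control, 789, 1459 and 1709.6 CPM in the Fkbp4 knockdown and 1164, 2154 and 5337 CPM in the Fkbp5 knockdown. There only the Fkbp5 knockdown day 5 library exceeded the rest, by 2.37-fold. The 3 libraries thus differed in which coding genes inside or partly inside the stretch were high. These were mt-Co1 alone in the control at day 3, mt-Co1 to mt-Atp6 in the Fkbp4 knockdown at day 5, and mt-Co1 to mt-Nd4 in the Fkbp5 knockdown at day 5. Only 31% of mt-Co1 lies in the stretch, so its count does not place reads within it. Some tRNA genes outside the stretch were high in these libraries as well, as described below.

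**Figure D2:**
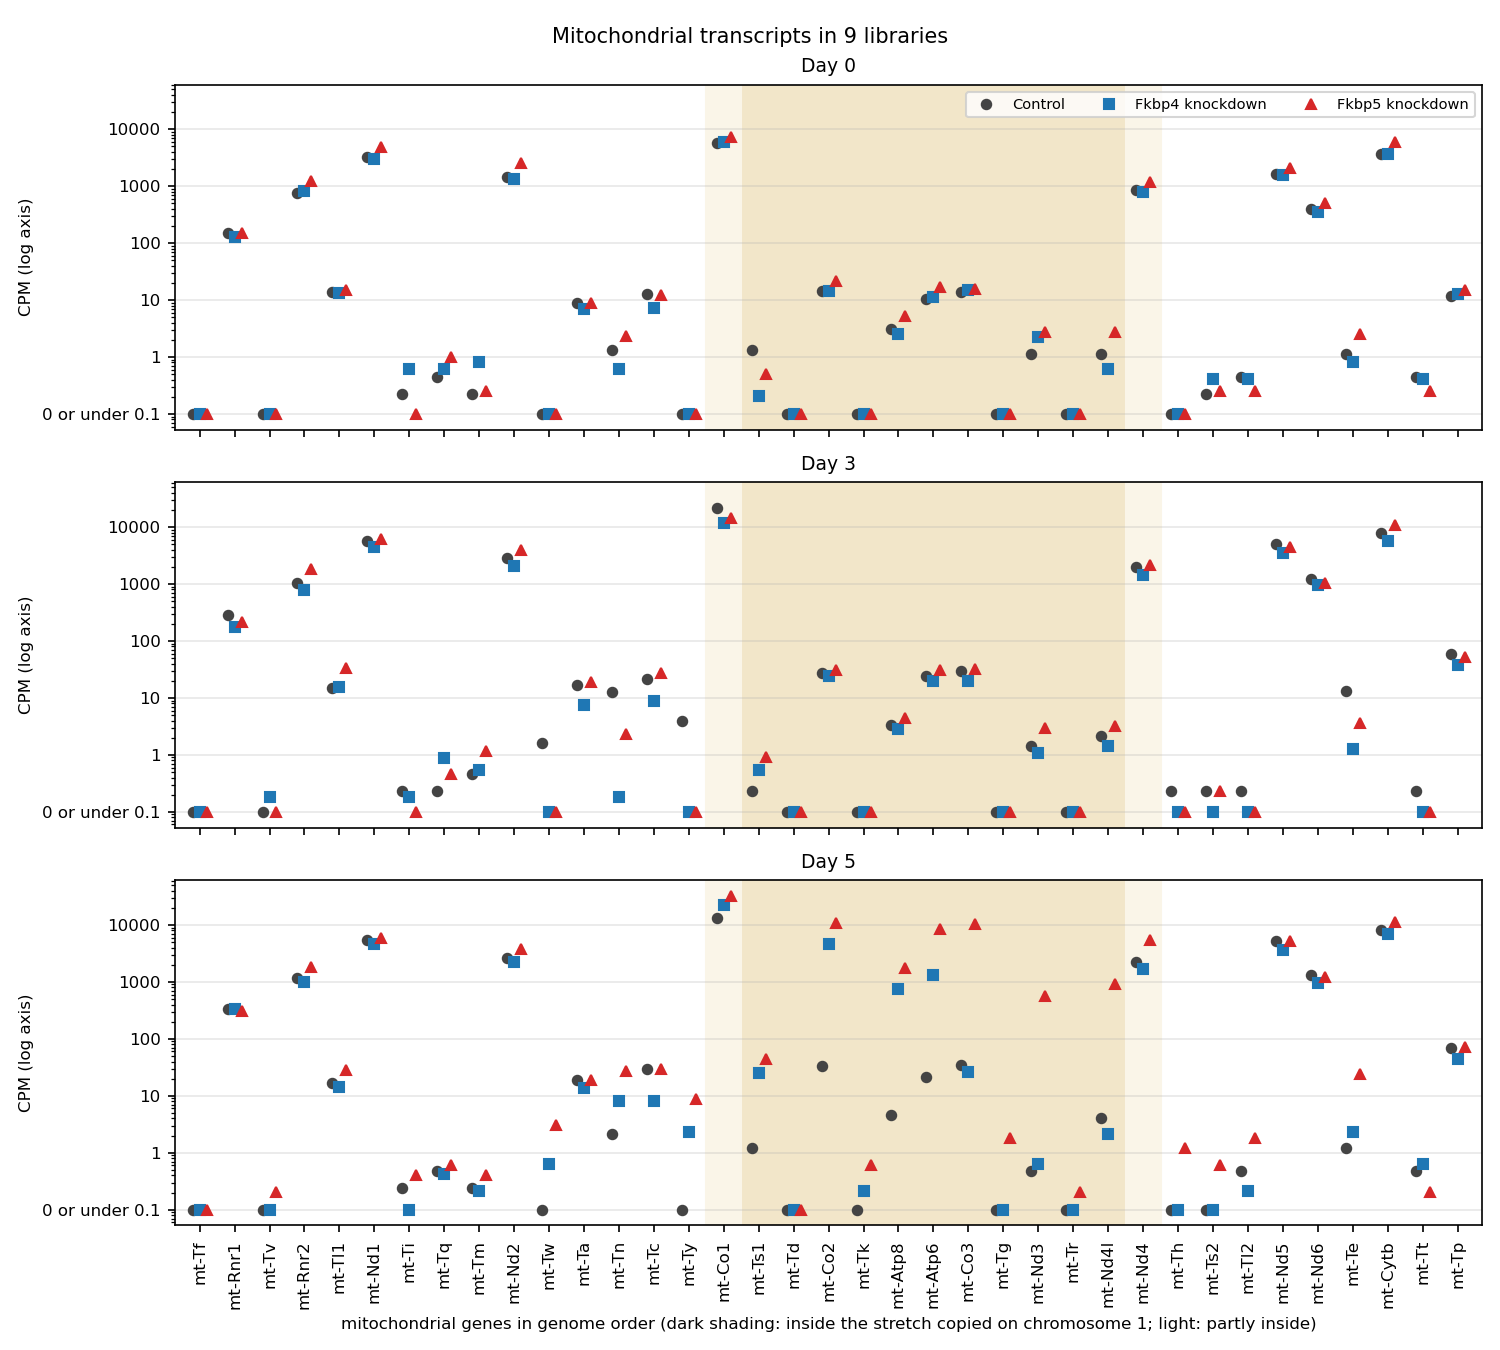
CPM on a log axis for the 37 genes in genome order, 1 panel per day, 1 point per genotype; values of 0 or under 0.1 are drawn at 0.1, dark shading marks genes inside the copied stretch and light shading the 2 genes partly inside. At day 5 mt-Co2 is at 33.6 CPM in the control, 4603 CPM in the Fkbp4 knockdown and 10921 CPM in the Fkbp5 knockdown, while mt-Co3 is at 34.8, 26.5 and 10440.1.

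Several tRNA genes were high in the same libraries. Their sequences are shown with the anticodon in capitals, since these short genes are read here only through the few reads that overlap them, and whether such reads came from a mature tRNA or a longer RNA could not be told apart. mt-Ts1 (serine, bases 6870 to 6938 of the mitochondrial genome) is inside the copied stretch next to mt-Co1, whereas mt-Tn (asparagine, bases 5089 to 5159) and mt-Te (glutamate, bases 14071 to 14139) are outside it. mt-Tc (cysteine, bases 5192 to 5257) and mt-Tp (proline, bases 15356 to 15422), also outside it, are shown for the knockdown and day differences described further on. All 5 of these genes lie on the strand of mt-Nd6.

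mt-Ts1: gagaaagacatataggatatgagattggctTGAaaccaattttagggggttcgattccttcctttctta

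mt-Tn: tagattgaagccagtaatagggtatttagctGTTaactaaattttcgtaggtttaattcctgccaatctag

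mt-Te: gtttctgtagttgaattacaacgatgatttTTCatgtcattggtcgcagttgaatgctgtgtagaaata

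mt-Tc: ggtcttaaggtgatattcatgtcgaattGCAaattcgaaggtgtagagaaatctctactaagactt

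mt-Tp: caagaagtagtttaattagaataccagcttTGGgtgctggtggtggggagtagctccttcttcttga

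mt-Ts1 had 6, 1 and 5 reads in the control at days 0, 3 and 5, 1, 3 and 118 reads in the Fkbp4 knockdown and 2, 4 and 219 reads in the Fkbp5 knockdown, so it was high where mt-Co2 was high. mt-Tn had 6, 54 and 9 reads in the control, 3, 1 and 39 reads in the Fkbp4 knockdown and 9, 10 and 132 reads in the Fkbp5 knockdown, so all 3 libraries that stood apart were above the other 6. mt-Te had 5, 57 and 5 reads in the control, 4, 7 and 11 reads in the Fkbp4 knockdown and 10, 16 and 118 reads in the Fkbp5 knockdown. It was high in the control at day 3 and the Fkbp5 knockdown at day 5, but not in the Fkbp4 knockdown at day 5. mt-Ty (tyrosine) had 17 reads in the control at day 3, 11 in the Fkbp4 knockdown at day 5 and 43 in the Fkbp5 knockdown at day 5, and mt-Tw (tryptophan) had 7, 3 and 15. Both were at 0 reads in the other 6 libraries. mt-Tn, mt-Ty and mt-Tw lie between mt-Nd2 and mt-Co1, outside the copied stretch. Of the 22 tRNA genes, 7 reached 50 reads in at least 1 library, 15 stayed at 43 reads or fewer in every library, and 2 (mt-Tf and mt-Td) had 0 reads throughout.

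Reads counted on the pseudogenes did not share this pattern. Where the sequences are identical, the genome such reads came from cannot be told. In the 6 libraries that did not stand apart, the 5 wholly copied genes with a pseudogene had 2 to 144 reads each and their pseudogenes 6 to 180. The share of the pair's reads on the mitochondrial gene had a median of 44.2% (13.3% to 59.6%), and the exact 95% interval held 50% in 18 of 30 pairs. In the Fkbp5 knockdown day 5 library, by contrast, mt-Co2 had 53111 reads and Gm28661 137, mt-Co3 had 50771 reads and Gm28437 233, and mt-Nd4l had 4529 reads and Gm10222 16. In the Fkbp4 knockdown day 5 library mt-Co2 had 21721 reads against 78, while mt-Co3 had 125 against 145. The 7 pseudogenes together were at 71.4, 139 and 152 CPM in the control at days 0, 3 and 5, 70.7, 116 and 122 CPM in the Fkbp4 knockdown and 96.6, 158 and 175 CPM in the Fkbp5 knockdown, so no library stood apart in reads counted on the pseudogenes. In the fit described next, 5 of the 7 pseudogenes rose between day 0 and day 3 (by 0.62 for Gm10925 to 1.13 for Gm28439). Of all genes tested 26.4% rose and 25.8% fell. No pseudogene was called in either knockdown against control, where few genes were called at all. For the Fkbp5 knockdown 0.685% of all genes were called higher and 1.4% lower, and for the Fkbp4 knockdown 0.265% and 0.825%. Between the knockdowns, Gm10925 (0.49), Gm28437 (0.68), Gm28438 (1.20) and Gm28439 (0.72) were called higher in the Fkbp5 knockdown. Gm28661 (0.55), Gm10222 (0.50) and Gm29216 (0.21) were not called. Of all genes 6.83% were called higher and 6.02% lower in that comparison.

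**Figure D3:**
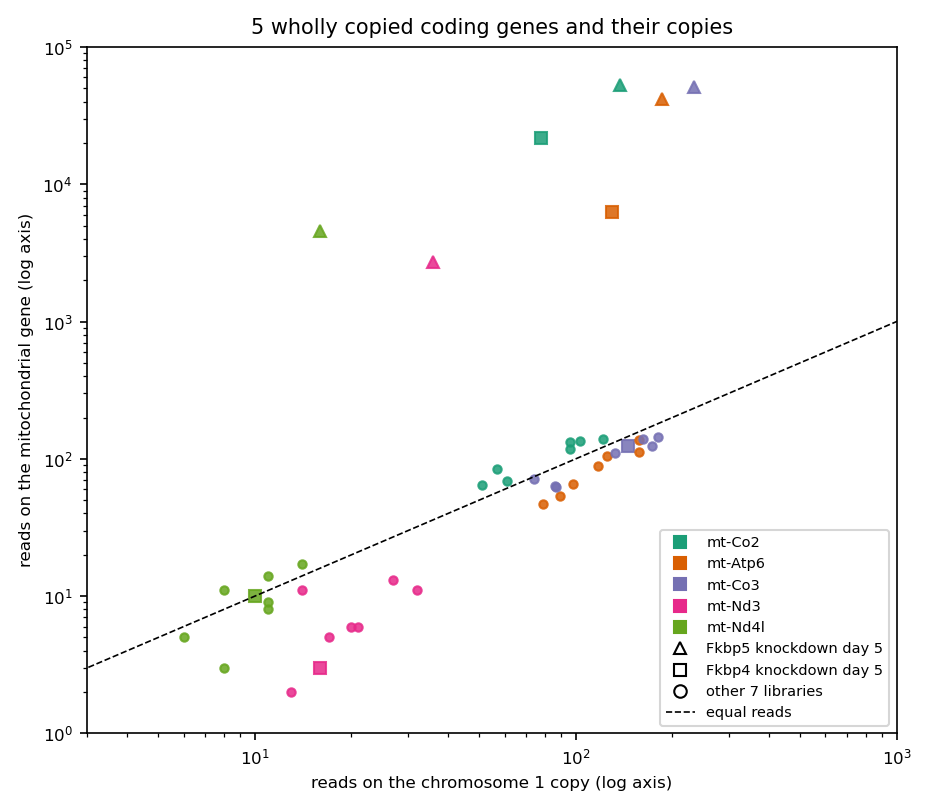
Reads on 5 wholly copied mitochondrial genes against reads on their chromosome 1 pseudogenes, both on log axes, 1 point per gene and library; the dashed line marks equal reads. In the Fkbp5 knockdown day 5 library (triangles) mt-Co2 has 53111 reads against 137, and in the Fkbp4 knockdown day 5 library (squares) mt-Co2 and mt-Atp6 leave the line while mt-Co3, with 125 against 145, stays near it.

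Jumps of this kind were counted over all genes, as at least 50 reads and a CPM at least 10-fold above both other libraries of the same day. The Fkbp5 knockdown day 5 library had 4 mitochondrial genes of this kind (mt-Co3, mt-Nd3, mt-Nd4l and mt-Te) and 4 others. No other library had a mitochondrial one, but each had 3 to 9 other genes. Summed over the 9 libraries these counts came to 47, of which 41 fell on annotated pseudogenes. A gene was counted again in each library where it jumped, such as Gm27529 in the control at day 0 and the Fkbp4 knockdown at day 3. A gene high in 2 libraries of a day, less than 10-fold apart, could not be counted by this rule. Against the control library of day 5 alone, the Fkbp4 knockdown had 4 mitochondrial genes (mt-Co2, mt-Atp8, mt-Atp6 and mt-Ts1) and 11 others. The Fkbp5 knockdown had 9 mitochondrial genes and 14 others. How reads that match several places were counted is not given in the sources used here, and its part in the jumps was not tested.

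Genes were compared between groups with edgeR's quasi-likelihood test on the counts, with genotype and day as additive terms, over 12844 genes. Values are log2 fold changes with standard errors (SE), p-values carry the Benjamini-Hochberg adjustment over all tested genes, and called means an adjusted p below 0.05. The filter on low counts kept 23 of the 37 mitochondrial genes: 14 outside the stretch, 2 partly and 7 wholly inside. The remaining 14 genes, all tRNAs, were not tested. Copied genes are kept apart below because their reads could belong to either genome.

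Levels per length ordered the outside genes as follows. At day 0 the mean over the 3 genotypes was 3863 CPM per kb ± 1047 (SD, n = 3) for mt-Nd1 and 3841 ± 1093 for mt-Cytb, the cytochrome b of complex III, which did not differ beyond their spread. mt-Nd2 was lower, at 1695 ± 633 CPM per kb. mt-Nd5 at 962 ± 154, mt-Nd6 at 793 ± 149 and the large rRNA mt-Rnr2 at 590 ± 166 CPM per kb followed. The intervals of 1 SD around the means of neighbours in this order overlapped from mt-Nd2 on, though within each of the 9 libraries mt-Nd6 was below mt-Nd5 per length (0.79 to 0.96 times). The small rRNA mt-Rnr1 was at 148 ± 13.5 CPM per kb. These are levels in polyA RNA. The tRNA genes mt-Tp, mt-Tl1, mt-Tc and mt-Ta lay between 118 and 196 CPM per kb. For comparison, mt-Co1 was at 4112 ± 506 CPM per kb and the wholly copied mt-Co2 at 24.3 ± 5.97, whereas in the Fkbp5 knockdown day 5 library mt-Co2 reached 15967 CPM per kb beside 20799 for mt-Co1.

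Reads on most mitochondrial genes outside the stretch were higher after differentiation, at genes annotated on either strand. Of the 14 tested genes outside the stretch, 11 rose by day 3 and none fell, where 26.4% of all genes tested rose and 25.8% fell. The median log2 fold change of the 14 was 0.83, beside 0.00 over all genes. mt-Nd5, a complex I subunit, was at 1652, 4997 and 5180 CPM in the control at days 0, 3 and 5, 1538, 3440 and 3604 CPM in the Fkbp4 knockdown and 2073, 4463 and 5274 CPM in the Fkbp5 knockdown. Its day 0 libraries lay below all later ones, and it rose by 1.28 (SE 0.13, adjusted p = 1.48e-05). mt-Nd6, which overlaps its end by 14 bases on the other strand, was at 395, 1205 and 1309 CPM in the control, 344, 940.1 and 955 CPM in the Fkbp4 knockdown and 496, 1056 and 1228 CPM in the Fkbp5 knockdown. It rose by 1.38 (SE 0.13, adjusted p = 8.43e-06), again without overlap between day 0 and later.

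mt-Cytb was at 3674, 7795 and 8159 CPM in the control, 3669, 5762 and 6935 CPM in the Fkbp4 knockdown and 5837, 11019 and 11462 CPM in the Fkbp5 knockdown, and rose by 0.88 (SE 0.11, adjusted p = 7.36e-05). Here the day 0 value of the Fkbp5 knockdown was as high as the day 3 value of the Fkbp4 knockdown. mt-Nd1 rose by 0.57 (SE 0.12) and mt-Nd2 by 0.76 (SE 0.12), both complex I subunits near the rRNA end of the genome. Of the rRNAs, mt-Rnr1 was at 149, 289 and 335 CPM in the control, 126, 176 and 335 CPM in the Fkbp4 knockdown and 149, 216 and 312 CPM in the Fkbp5 knockdown, and rose by 0.67 (SE 0.14). mt-Rnr2 rose by 0.32 (SE 0.12, adjusted p = 0.045), a call that ended without any 1 of 7 libraries, the 3 control, the 3 Fkbp5 knockdown or the Fkbp4 knockdown day 5 (0.25 to 0.33, adjusted p = 0.0507 to 0.216).

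The largest called rise outside the stretch by day 3 was on mt-Tp, which lies beyond mt-Cytb at the far end of the genome, on the other strand. It was at 11.8, 59.4 and 69.0 CPM in the control, 12.6, 38.4 and 43.9 CPM in the Fkbp4 knockdown and 15, 52.8 and 72.6 CPM in the Fkbp5 knockdown, a rise by day 3 of 1.91 (SE 0.16, adjusted p = 4.13e-06). mt-Ta (alanine) rose by 0.77 (SE 0.21), mt-Tc by 0.75 (SE 0.20) and mt-Tl1 (leucine) by 0.53 (SE 0.19). Each of these 3 calls ended without some single libraries. mt-Ta was lost without the control day 0 (0.70) or day 3 (0.67) library and mt-Tc without the control (0.68) or Fkbp5 knockdown (0.58) day 0 library. mt-Tl1 was lost without the Fkbp4 knockdown day 3 (0.57), the Fkbp5 knockdown day 0 (0.26) or its day 3 library (0.38). mt-Co1 and mt-Nd4, partly inside the stretch, also rose, by 1.33 (SE 0.29) and 1.01 (SE 0.22). Leaving out the 3 libraries that stood apart left 8 of 13 tested outside genes called by day 3, with mt-Nd5 at 1.13, mt-Nd6 at 1.27, mt-Tp at 1.70 and mt-Cytb at 0.78. In that fit 3 wholly copied genes were called as well, mt-Co2 at 0.62, mt-Atp6 at 0.87 and mt-Co3 at 0.72, and the calls on mt-Nd1 (0.44, adjusted p = 0.195), mt-Rnr2 (0.26, adjusted p = 0.416) and mt-Ta (0.64, adjusted p = 0.0865) were lost.

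Between day 3 and day 5 little more changed outside the stretch. Only mt-Rnr1 rose, by 0.59 (SE 0.13, adjusted p = 0.0288), beside 3.77% of all genes that rose and 2.39% that fell. This call was lost when the control library of day 5, or any of the later libraries of either knockdown, was left out, at 0.46 and 0.45 without Fkbp4 knockdown days 3 and 5, 0.53 and 0.61 without Fkbp5 knockdown days 3 and 5, and 0.71 without control day 5. A further 6 genes inside the stretch were called between these days, mt-Ts1, mt-Co2, mt-Atp8, mt-Atp6, mt-Nd3 and mt-Nd4l at 5.28 to 7.51. Without the libraries that stood apart, which left the control as the only day 5 library, mt-Ts1 was not tested. In that fit mt-Co2 was at 0.63 and mt-Nd3 at −0.72. Without the Fkbp5 knockdown day 5 library alone, mt-Co2 (5.41), mt-Atp6 (3.94), mt-Nd3 (−1.19) and mt-Nd4l (0.93) were not called. Without Fkbp5 knockdown day 3 the same 4 genes were not called (5.97, 4.62, 1.05 and 1.20). Without Fkbp4 knockdown day 3 (6.53 and 5.77), Fkbp4 knockdown day 5 (6.2 and 5.85) or control day 0 (6.40 and 5.47) mt-Co2 and mt-Atp6 were lost, and mt-Atp8 (7.15) without Fkbp4 knockdown day 3. From day 0 to day 5, 11 of 14 outside genes rose and none fell, where 29.3% of all genes rose and 28.6% fell. mt-Tp rose by 2.24 (SE 0.16), mt-Nd6 by 1.53 (SE 0.13), mt-Nd5 by 1.44 (SE 0.13), mt-Rnr1 by 1.25 (SE 0.14) and mt-Cytb by 1.04 (SE 0.11). The call on mt-Tn (3.22, SE 1.07) was lost without the libraries that stood apart (0.71, adjusted p = 0.652). It was also lost without the control day 0 (3.07), the Fkbp4 knockdown day 5 (2.68) or the Fkbp5 knockdown day 0 (3.37) or day 5 library (2.06). Inside or partly inside the stretch 8 of 9 genes were called higher at day 5 than at day 0. Without the libraries that stood apart, day 5 was the control library alone. In that fit mt-Co1 was at 1.23, mt-Nd4 at 1.42, mt-Co2 at 1.26, mt-Atp6 at 1.04 and mt-Co3 at 1.33. There mt-Atp8 was at 0.58, mt-Nd4l at 1.88 and mt-Nd3 at −1.14. mt-Nd3 (5.73) and mt-Nd4l (7.15) were lost without the Fkbp5 knockdown day 0 library (0.28 and 2.67), and mt-Nd3 without its day 5 library (−1.43).

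**Figure D4:**
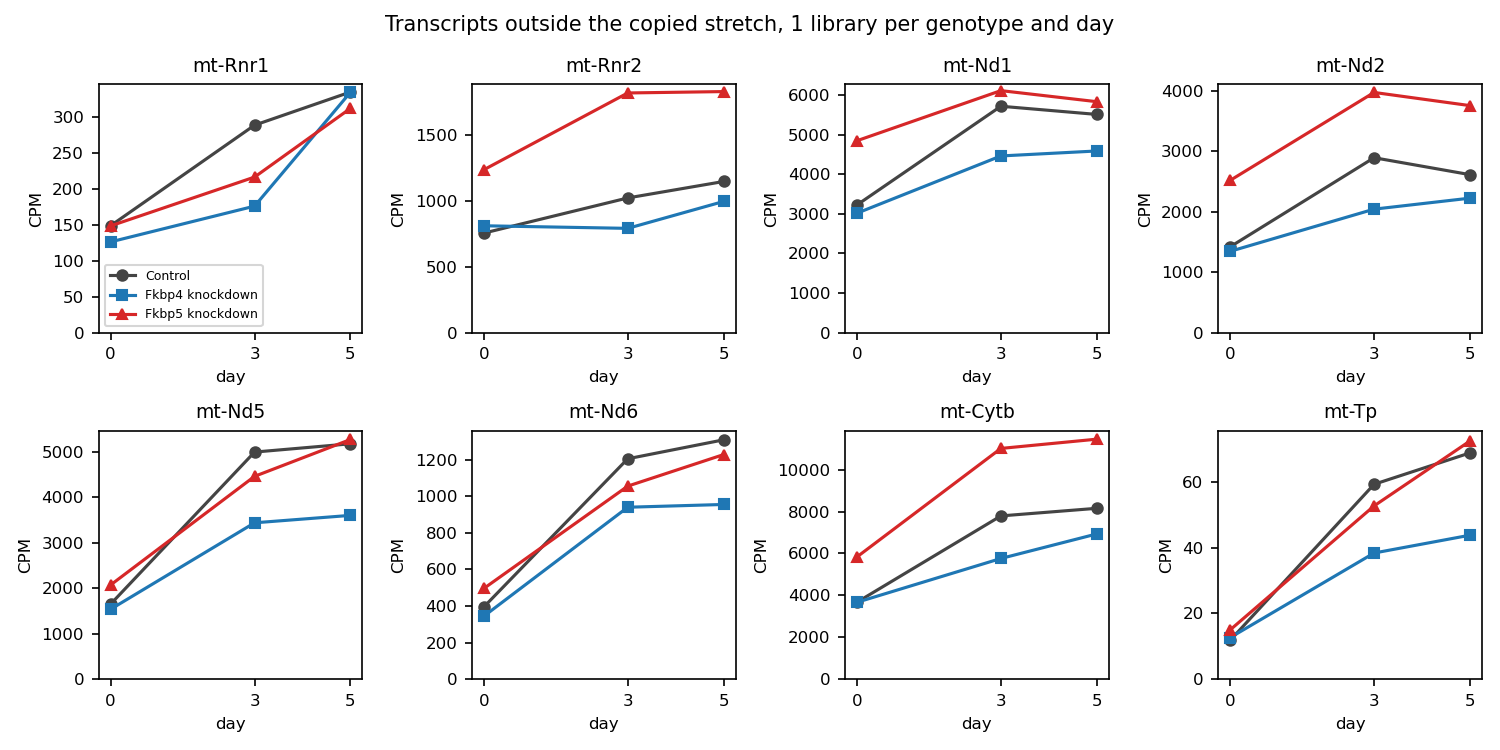
CPM of 8 genes outside the copied stretch at days 0, 3 and 5 (linear axes from 0), 1 point per library and 1 line per genotype. mt-Nd5, mt-Nd6 and mt-Tp are higher at day 3 than at day 0 in all 3 genotypes, and mt-Rnr2 is highest in the Fkbp5 knockdown on every day, from 1236 CPM at day 0 to 1829 at day 5.

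In the Fkbp5 knockdown 3 outside transcripts were higher than in the control: the large rRNA, mt-Nd2 and mt-Cytb. mt-Rnr2, the RNA of the large mitochondrial ribosomal subunit, was at 755, 1022 and 1147 CPM in the control at days 0, 3 and 5, 811, 791 and 995 CPM in the Fkbp4 knockdown and 1236, 1819 and 1829 CPM in the Fkbp5 knockdown. All 3 Fkbp5 knockdown libraries were above all 6 others. Its log2 fold change was 0.78 (SE 0.12, adjusted p = 0.011), and the ratios to the control of the same day were 0.71, 0.83 and 0.67 on the log2 scale. mt-Nd2 was at 1419, 2892 and 2612 CPM in the control, 1344, 2041 and 2223 CPM in the Fkbp4 knockdown and 2517, 3971 and 3753 CPM in the Fkbp5 knockdown. The genotypes overlapped across days, but on each day the Fkbp5 knockdown was highest, with a log2 fold change of 0.64 (SE 0.12, adjusted p = 0.024). mt-Cytb was also highest in the Fkbp5 knockdown on each day (0.59, SE 0.11, adjusted p = 0.0248).

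These were 3 of 14 tested outside genes called higher and none lower, beside 0.685% of all genes called higher and 1.4% called lower in this comparison. The median of the 14 was 0.37, beside 0.00 over all genes, and 13 of 14 estimates were positive. With DESeq2 the median was 0.13 and 11 of 14 were positive, with 3 called as well. Without the Fkbp5 knockdown day 5 library the median was 0.08 with 9 of 14 positive, without the control day 5 library 0.10 with 10 of 14 positive, and without the 3 libraries that stood apart 0.44 with 13 of 13 positive. In the last of these fits a single control library, that of day 0, carried the comparison. mt-Nd1 had 0.30 (SE 0.12, adjusted p = 0.273), mt-Tl1 0.77 (SE 0.19, adjusted p = 0.0735), mt-Nd5 0.10 (SE 0.13), mt-Nd6 0.06 (SE 0.12) and mt-Rnr1 −0.14 (SE 0.13). The 2 rRNAs, neighbours in the genome, differed in this respect: per length the ratio of mt-Rnr2 to mt-Rnr1 was 3.06, 2.14 and 2.07 for the control, 3.88, 2.71 and 1.8 for the Fkbp4 knockdown and 5.02, 5.07 and 3.54 for the Fkbp5 knockdown. The ratio was highest in the Fkbp5 knockdown on each day, though the lowest Fkbp5 knockdown value lay below the highest of the Fkbp4 knockdown. No test of this ratio was made.

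The 3 calls rested on few libraries. Leaving out the Fkbp5 knockdown day 5 library or any 1 of the control libraries left no outside gene called. Over the 9 fits without 1 library, the adjusted p was 0.00887 to 0.0698 for mt-Rnr2 (log2 fold change 0.71 to 0.84), 0.0323 to 0.158 for mt-Nd2 (0.54 to 0.75) and 0.0296 to 0.178 for mt-Cytb (0.51 to 0.67). mt-Rnr2 was at 0.78 without the Fkbp5 knockdown day 5 library and at 0.72, 0.82 and 0.78 without control days 0, 3 and 5. mt-Nd2 was also lost without Fkbp5 knockdown day 0 (0.56, adjusted p = 0.063), and mt-Cytb without that library (0.57, adjusted p = 0.0561) or Fkbp4 knockdown day 5 (0.59, adjusted p = 0.0564). Without the 3 libraries that stood apart, mt-Rnr2 was at 0.91, mt-Nd2 at 0.88 and mt-Cytb at 0.78. That fit had 1 residual degree of freedom and rested on the control day 0 library alone for the control. Inside the stretch, mt-Nd3 (6.99, SE 1.42) and mt-Nd4l (6.47, SE 1.16) were called, 2 of the 9 genes inside or partly inside. They were high in 1 library, and without the 3 libraries they were at 1.61 and 1.18 and not called. Without the Fkbp5 knockdown day 5 library alone they were at 1.21 and 0.85, and without the control day 5 library at 2.11 and 1.51, and not called. mt-Nd3 was also lost without the control day 0 (7.76) or day 3 library (7.99), and DESeq2 called neither gene. Without the 3 libraries edgeR called 0 mitochondrial genes in this comparison, with 3 outside and 1 inside or partly inside at an unadjusted p under 0.05.

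**Figure D5:**
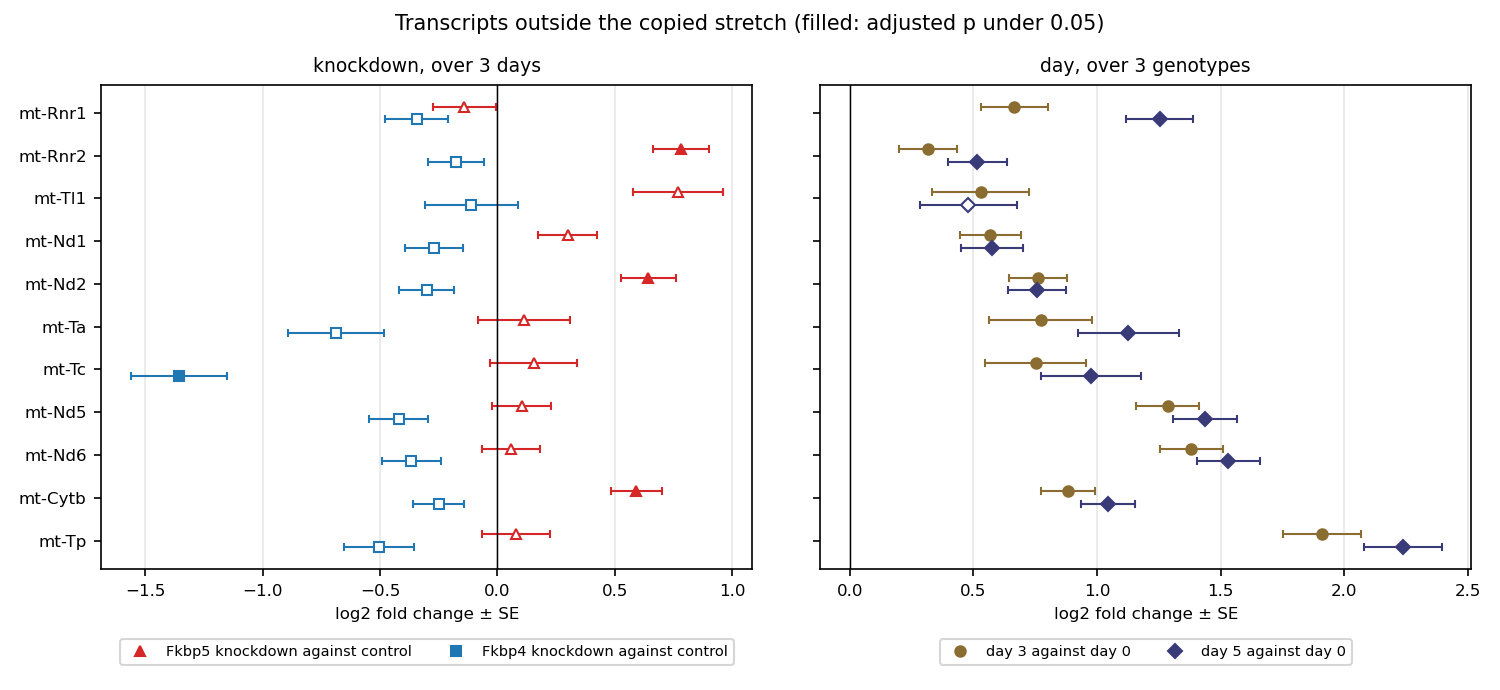
Log2 fold changes with standard errors from the additive edgeR fit for the tested genes outside the copied stretch (without mt-Tn, mt-Ty and mt-Te, whose reads lay mainly in the libraries that stood apart); left, each knockdown against control; right, days 3 and 5 against day 0; filled symbols passed an adjusted p of 0.05. mt-Rnr2, mt-Nd2 and mt-Cytb are filled for the Fkbp5 knockdown at 0.78, 0.64 and 0.59, mt-Tc is filled for the Fkbp4 knockdown at −1.36, and of the 22 day estimates only mt-Tl1 at day 5 (0.48) is open.

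In the Fkbp4 knockdown 1 outside gene, mt-Tc, was lower than in the control. mt-Tc was at 12.9, 21.1 and 29.3 CPM in the control, 7.26, 8.8 and 8.26 CPM in the Fkbp4 knockdown and 12.2, 27.5 and 29.0 CPM in the Fkbp5 knockdown. All 3 Fkbp4 knockdown libraries lay below all 6 others, and its log2 fold change was −1.36 (SE 0.21, adjusted p = 0.0185). It was the only one of 14 tested outside genes called lower, and none was called higher, beside 0.825% of all genes called lower and 0.265% called higher. All 14 estimates were negative (13 of 14 with limma voom), with a median of −0.39 beside 0.02 over all genes. Of the 14, 8 had an unadjusted p under 0.05 in edgeR, beside 1196 lower and 907 higher of all 12844 genes. Without the control day 3 library the median was −0.18 and 11 of 14 were negative. mt-Nd5 had −0.42 (SE 0.13, adjusted p = 0.154), mt-Nd6 −0.37 (SE 0.12), mt-Ta −0.69 (SE 0.20, adjusted p = 0.148) and mt-Tp −0.50 (SE 0.15).

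By day, the 5 outside coding genes of the Fkbp4 knockdown lay less far below the control at day 0 than at days 3 and 5. This difference between days was not called for either gene named next (adjusted p = 1 in the interaction fit below, edgeR). For mt-Cytb the log2 ratios to the control of the same day were 0.00, −0.44 and −0.23 at days 0, 3 and 5, and for mt-Nd5 −0.10, −0.54 and −0.52. The control library of day 3 is one of those that stood apart. The call on mt-Tc was lost without the Fkbp4 knockdown day 3 (−1.33) or day 5 (−1.13) library or any 1 of the control libraries (−1.43 to −1.22). Over the 9 fits without 1 library it was at −1.58 to −1.13 (adjusted p = 0.00905 to 0.109). Without the 3 libraries that stood apart it was at −1.10, and the median of the 13 outside genes tested was −0.12. There the control day 0 library alone stood for the control. With all 9 libraries edgeR and DESeq2 called 0 of the 9 genes inside or partly inside the stretch, with 2 and 0 at an unadjusted p under 0.05. mt-Atp8 was at 5.10 (SE 1.53, adjusted p = 0.154).

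More outside genes were called between the knockdowns than between either of them and the control. Against the Fkbp4 knockdown, the Fkbp5 knockdown had 10 of 14 outside genes called higher and none lower, beside 6.83% of all genes called higher and 6.02% lower. The median of the 14 was 0.86, beside −0.01 over all genes. mt-Rnr2 was at 0.96 (SE 0.12, adjusted p = 0.00132), mt-Nd2 at 0.94 (SE 0.12, adjusted p = 0.00132), mt-Cytb at 0.84 (SE 0.11, adjusted p = 0.00172) and mt-Tc at 1.51 (SE 0.20, adjusted p = 0.002). These 4 calls were kept in all 9 fits without 1 library. mt-Nd1 (0.57), mt-Nd5 (0.52), mt-Nd6 (0.43), mt-Tp (0.58), mt-Tl1 (0.88) and mt-Ta (0.80) were called too, each lost in 4 to 8 of those fits. Leaving out the Fkbp4 knockdown day 3 or day 5 library ended all 6 of these calls, at 0.56 and 0.60 for mt-Nd1, 0.51 and 0.46 for mt-Nd5, 0.48 and 0.39 for mt-Nd6, 0.56 and 0.45 for mt-Tp, 0.84 and 0.79 for mt-Tl1, and 0.53 and 0.95 for mt-Ta. Without the Fkbp5 knockdown day 5 library mt-Tl1 (0.79), mt-Ta (0.87), mt-Nd5 (0.49), mt-Nd6 (0.43) and mt-Tp (0.47) were lost. Without its day 0 library mt-Nd1 (0.41), mt-Nd5 (0.44), mt-Nd6 (0.28) and mt-Tp (0.57) were lost, and without its day 3 library mt-Tl1 (0.70) and mt-Ta (0.66). mt-Nd1, mt-Nd5 and mt-Nd6 were also lost without the Fkbp4 knockdown day 0 library (0.52, 0.57 and 0.38), and mt-Nd6 without any 1 control library (0.41 to 0.42). Without the 3 libraries that stood apart, mt-Rnr2 (0.96, adjusted p = 0.00318), mt-Nd2 (0.99, adjusted p = 0.0055), mt-Tc (1.29, adjusted p = 2.44e-04) and mt-Ta (0.95, adjusted p = 0.0427) were called, and mt-Cytb was at 0.86 (adjusted p = 0.0514). The mt-Nd4 call (1.02, SE 0.22) and those on mt-Nd3 (6.48) and mt-Nd4l (7.27) were lost in that fit (0.62, 0.88 and 1.56). All 3 were lost without the Fkbp4 knockdown day 5 library alone (0.80, 1.5 and 2.30), and the last 2 without the Fkbp5 knockdown day 5 library (0.86 and 1.64).

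Whether a knockdown effect changed between day 0 and the later days was tested with an interaction term, which left 2 residual degrees of freedom. None of the 24 mitochondrial genes tested was called for either knockdown with edgeR. The smallest adjusted p was 0.361 for the Fkbp5 knockdown and 0.409 for the Fkbp4 knockdown, 4 and 2 genes had an unadjusted p under 0.05, and 5 genes of 13372 were called in each.

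The nuclear genes that transcribe, process and maintain the mitochondrial genome were compared in the same fit. In the Fkbp5 knockdown against control, none of 10 tested genes for mitochondrial transcription, 29 for RNA processing and stability, 19 for genome maintenance or 17 regulators of mitochondrial biogenesis was called, with medians of −0.14, −0.04, −0.06 and −0.15. DESeq2 called none of these 75 genes either. In edgeR 8 of the 75 had an unadjusted p under 0.05, beside 967 higher and 1060 lower of all 12844 genes. Polrmt had 0.13 (SE 0.11), Tfam −0.20 (SE 0.09), the RNA-stabilising factors Lrpprc −0.09 (SE 0.11) and Slirp 0.11 (SE 0.12), the poly(A) polymerase Mtpap −0.14 (SE 0.16), the helicase Twnk −0.15 (SE 0.15) and the DNA polymerase Polg −0.27 (SE 0.12). In the Fkbp4 knockdown against control the 1 called gene of these lists was the nucleotide carrier Slc25a36, which was lower (−0.74). No gene of these 4 lists was called in either knockdown against control without the 3 libraries that stood apart. Between the knockdowns 7 of the 75 were called, where 6.83% of all genes were higher and 6.02% lower. In the Fkbp5 against the Fkbp4 knockdown, 2 maintenance genes were higher, and 2 processing genes and 3 biogenesis regulators were lower. DESeq2 called 1 maintenance gene higher and 1 biogenesis regulator lower, and edgeR called none without the 3 libraries.

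By day 3 these lists moved in both directions. Of the 10 transcription genes 3 fell (Mrpl12 by 0.92, Tfam by 0.51 and Mterf3 by 0.41) and none rose. Of 29 processing genes 5 rose and 8 fell, of 19 maintenance genes 2 rose and 5 fell, and of 17 biogenesis regulators 3 rose and 6 fell. The coactivator Ppargc1a rose by 1.65 (SE 0.44) from a level of 0.25 to 1.45 CPM at day 0, and the kinase subunit Prkaa2 by 2.08, while Myc fell by 1.18 and Nrf1 by 0.69. These counts stand beside the 26.4% and 25.8% of all genes that rose and fell, and their medians (−0.23 to −0.13) were near 0 while the median of the outside mitochondrial genes was 0.83. In the fit without the 3 libraries, 0 rose and 2 fell of the transcription genes, 2 and 7 of the processing genes, 1 and 6 of the maintenance genes, and 2 and 4 of the biogenesis regulators.

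Nuclear subunits of the same respiratory complexes changed less as lists. By day 3, 7 of 36 complex I subunits rose and 1 fell (median 0.07), of 9 for complex III 1 rose (−0.03), of 14 for complex IV 3 rose and 3 fell (−0.03), and of 16 for the ATP synthase 1 rose and 1 fell (−0.06). The muscle isoforms Cox6a2 (5.25) and Cox8b (5.93) of complex IV had the largest rises. The counts by day 3 without the 3 libraries that stood apart were 2 risen and 1 fallen for complex I, 0 and 0 for complex III, 2 and 1 for complex IV, and 0 and 2 for the ATP synthase. From day 0 to day 5, 9 complex I subunits rose and 5 fell (median −0.02), and 1 and 1 for complex III (0.00). For complex IV 2 rose and 4 fell (−0.12), and for the ATP synthase 1 rose and 7 fell (−0.26). Of all genes 26.4% rose and 25.8% fell by day 3, and 29.3% and 28.6% by day 5. Against control, Ndufc2 of complex I was lower in the Fkbp5 knockdown (−0.64), and Ndufa1 (−1.19) of complex I and Atp5l (−0.72) of the ATP synthase were lower in the Fkbp4 knockdown. Most Fkbp4 knockdown estimates were negative: 31 of 36 for complex I (median −0.20) and 7 of 9 for complex III (−0.13). For complex IV these were 13 of 14 (−0.22), and for the ATP synthase 13 of 16 (−0.18). In edgeR 14, 3, 6 and 6 had an unadjusted p under 0.05. The Fkbp5 knockdown medians were −0.02, 0.03, −0.05 and −0.05. No subunit of these complexes was called lower in either knockdown without the 3 libraries. In the Fkbp5 against the Fkbp4 knockdown, 6 of 36 complex I subunits were higher and none lower (median 0.20), with Ndufa1 at 1.11 and Ndufv3 at 0.51, as were 2 of 9 for complex III (Uqcrh at 0.49 and Uqcrq at 0.41) and 2 of 16 for the ATP synthase (Atp5l at 0.69 and Atp5e at 0.61). Of 14 for complex IV, 1 was higher (Cox7b at 0.41) and 1 lower (Cox6a2 at −0.98). Without the 3 libraries that stood apart the counts of higher subunits were 1 for complex I, 0 for complexes III and IV and 3 for the ATP synthase, and 1 of complex IV was lower. Muscle identity markers differed in the opposite direction, with 4 of 9 lower in this comparison (median −0.78) and 2 of 9 lower in the Fkbp5 knockdown against control (median −0.63). When the 3 libraries were left out these were 5 of 9 lower (median −1.07) and 0 of 9 lower (median −0.03). Their part in these differences was not tested.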

How the data were processed

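For each library the authors deposited unnormalised counts of reads per Ensembl gene. Per the submitters' processing notes, CASAVA 1.8, HISAT2 2.0.2, Subread and featureCounts 1.4.6 were used with mm10, and per the labels libraries were made with the TruSeq RNA v2 kit; the annotation release, strand setting and handling of reads with several matches are not given in the sources used here. Gene symbols came from GENCODE M21 (47309 of 47728 identifiers matched; the other 419 held at most 0.0188% of a library). The copied stretch was found by comparing GENCODE M21 transcripts, since no genome sequence was used here; the planned genome alignment, with its alternative at 90% identity, was not run. CPM, SDs and counting intervals were computed from the counts. Tests used edgeR 4.0.16 (filterByExpr with a minimum count of 10, TMM scaling, quasi-likelihood, biological coefficient of variation 0.126, 4 residual degrees of freedom) in R 4.3.3, with DESeq2 1.42.0 and limma 3.58.1 as alternatives; each SE was taken from the log2 fold change and its F statistic. The fit was tested on simulated data. Per-library values are given for coding and rRNA genes and the tRNA genes the results turn on (7 had at least 50 reads in a library), the others by range; from each list, called genes (at most 4 per direction) and 8 regulators were named. mt-Ty and mt-Tw, with fewer reads, were named after their values were seen. Symbols of 2 listed genes were not matched. Members and lists were chosen with earlier results of these data known.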

Additional observations from a re-analysis of the deposited data

How the results depend on the processing

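Over fits without 1 library, the called outside genes numbered 0 to 3 for the Fkbp5 knockdown against control, 0 to 1 for the Fkbp4 knockdown against control, 4 to 11 between the knockdowns, and 0 to 3, 8 to 12 and 10 to 14 for day 5 against 3, day 3 against 0 and day 5 against 0. Against control, both knockdowns had 0 called without the day term, without day 3 or day 5 in all genotypes, and without the 3 libraries that stood apart, a set chosen after seeing the data. For the Fkbp4 knockdown DESeq2 called 2 and a fit with no low-count filter 6. Between the knockdowns 0 were called without the day term, 6 without day 0, 4 without day 5 and 4 without the 3 libraries. Without the genotype term the day counts were 5, 0 and 7 for day 3 against 0, day 5 against 3 and day 5 against 0; for day 5 against 3 there were 3 with no filter and 0 without the 3 libraries. The Fkbp5 knockdown minus control difference in the share of all 37 genes (2.19 percentage points) ran from 0.02 to 3.77 without 1 library. The Fkbp4 knockdown minus control difference in the share of all 37 genes (−0.22 points) ran from −1.08 to 0.54 without 1 library, changing sign without the Fkbp4 knockdown day 0, control day 3 or control day 5 library. mt-Nd3 turned from 6.12 to −0.72 (day 5 against 3) and from 5.73 to −1.14 (day 5 against 0) without the 3 libraries; without 1 library it ran from −1.19 to 6.99 and from −1.43 to 6.80. The causes were not tested. Scaling without mitochondrial genes and scaling by library totals kept the number of outside genes called within 1.5-fold in each comparison. Both ended the mt-Nd6 call between the knockdowns. DESeq2 did not call mt-Ta or mt-Nd3 between the knockdowns, or mt-Tl1 for day 3 against 0. Nor did it call mt-Nd3 and mt-Nd4l for day 5 against 3, or mt-Nd3 for day 5 against 0. With limma voom mt-Tn for day 5 against 0 and both knockdown calls on mt-Nd3 were lost. Depth limits the tRNA genes: 15 of 22 had 43 reads or fewer in every library.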
